A study of Homo sapiens with 18 samples.

Results

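The 9 genes described here encode ligands of the EGF receptor family and the receptors that bind them: the ligands AREG, EREG, EPGN, BTC, HBEGF and TGFA, and the receptors EGFR, ERBB2 and ERBB3. They were taken by name from a table of 26485 genes, and all 9 passed the filter on low values that left 13096 genes for testing. Messenger RNA was sequenced from cells of the human pancreatic cancer line L3.6pl. Parental cells (Par) and a gemcitabine-resistant derivative (GemR) were compared, and GemR cells were kept in 64 nM gemcitabine. The 6 groups of 3 libraries were Par siCont, GemR siCont and GemR siSTIM1, each with vehicle (DMSO) or 500 nM thapsigargin for 3 h. All cells, Par included, had received an siRNA for 48 h, and no Par cells with siSTIM1 were part of the design. The labels do not give the siRNA sequences. Loss of STIM1 and other effects of that siRNA cannot be told apart. GemR is a single resistant derivative, so resistance and the drug in its medium cannot be told apart, and the labels do not say whether the replicates came from separate cultures. The p-values therefore measure the spread between these libraries, which may be technical.

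Ligands of this family are made as membrane-bound precursors, are cut free by metalloproteases such as ADAM17, and bind receptors of the ERBB family on the same or neighbouring cells. Ligand binding pairs the receptors and switches on their kinases, which feed the RAS-MAPK and PI3K pathways. All 6 ligands bind EGFR, and HBEGF, BTC and EREG also bind ERBB4, ERBB2 has no known soluble ligand, and ERBB3 has little kinase activity of its own and signals with a partner. In pancreatic cancer, EGFR signalling is known to contribute to tumour growth. Thapsigargin blocks the SERCA pump, so that calcium leaks out of the endoplasmic reticulum, and STIM1 is the sensor that opens calcium channels at the cell surface when that store is empty.

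Values are normalized counts, which are gene read counts divided by a size factor per library. The recovered depth ran from 8922439 to 16519239 reads per library. The targeted gene matched the labels, with STIM1 at 5890 ± 793 (SD, n = 3) in GemR siCont with vehicle, 382 ± 23.7 in GemR siSTIM1 with vehicle and 457 ± 20.6 in Par siCont with vehicle. HSPA5, a chaperone induced when the endoplasmic reticulum is stressed, rose with thapsigargin by 2.79 ± 0.06 (log2, SE) in Par siCont, 2.30 ± 0.06 in GemR siCont and 2.6 ± 0.06 in GemR siSTIM1. Epithelial markers were expressed in all libraries, with summed normalized counts from 38106 to 67190. Summed fibroblast markers ran from 1002 to 3177, with DCN at 0 in every group, immune markers from 73.2 to 177, and endothelial markers from 114 to 282. In 2 libraries the deviation from the group mean fell most with transcript length: replicate 1 of GemR siCont with vehicle (Spearman rho -0.58 across 12419 genes) and replicate 1 of GemR siSTIM1 with thapsigargin (rho -0.51). The other libraries of the first group went the opposite way, with rho 0.40 in replicate 2 and 0.53 in replicate 3. EGFR has a longest annotated transcript of 9821 bases, the longest of the 9 genes, and it was the lowest of its group in both libraries that fell and the highest of its group in GemR siCont vehicle replicate 3.

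In GENCODE 29 (GRCh38), 4 of the 6 ligand genes lie together on chromosome 4. EPGN (chr4:74308473-74315307), EREG (chr4:74365143-74388751) and AREG (chr4:74445134-74455009) are on the plus strand, 49.8 kb and 56.4 kb apart, and BTC (chr4:74744759-74794686) follows on the minus strand 289.8 kb beyond AREG. HBEGF (chr5:140332843-140346631) and TGFA (chr2:70447280-70554193) are on the minus strand. The receptor genes are EGFR (chr7:55019021-55211628), ERBB2 (chr17:39687914-39730426) and ERBB3 (chr12:56076799-56103505), all on the plus strand. These spans are whole protein-coding genes, exons and introns included, and the reads were counted per gene.

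The 250 bases before the RefSeq start (GRCh38.p14) are shown for the 4 ligands that rose with thapsigargin in parental cells, 5′ to 3′ on the gene's own strand. Of the 9 genes, 8 had an entry. Capitals mark matches, on either strand, to 4 short motifs: TGACG, a part of the cAMP response element, TGANTCA, the AP-1 site, GGAAA, the core of an NFAT site, and TATAAA, the TATA box. The windows are chr4:74444886-74445135 (AREG), chr4:74364895-74365144 (EREG), chr4:74308220-74308469 (EPGN) and chr5:140346604-140346853 (HBEGF, minus strand).
AREG: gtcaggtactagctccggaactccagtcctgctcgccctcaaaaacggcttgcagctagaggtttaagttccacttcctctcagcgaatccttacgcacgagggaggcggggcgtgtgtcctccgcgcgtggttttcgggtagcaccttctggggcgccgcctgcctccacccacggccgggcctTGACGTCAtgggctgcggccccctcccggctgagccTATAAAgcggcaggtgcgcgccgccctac
EREG: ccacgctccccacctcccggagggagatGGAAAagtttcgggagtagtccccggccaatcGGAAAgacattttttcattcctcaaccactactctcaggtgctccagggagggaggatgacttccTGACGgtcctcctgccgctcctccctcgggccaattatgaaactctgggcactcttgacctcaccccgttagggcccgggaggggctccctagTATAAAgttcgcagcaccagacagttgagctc
EPGN: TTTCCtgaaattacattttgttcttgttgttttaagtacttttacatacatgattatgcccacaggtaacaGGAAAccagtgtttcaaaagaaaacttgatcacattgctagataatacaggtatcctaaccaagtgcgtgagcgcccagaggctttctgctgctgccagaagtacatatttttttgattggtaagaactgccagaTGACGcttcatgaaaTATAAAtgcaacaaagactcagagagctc
HBEGF: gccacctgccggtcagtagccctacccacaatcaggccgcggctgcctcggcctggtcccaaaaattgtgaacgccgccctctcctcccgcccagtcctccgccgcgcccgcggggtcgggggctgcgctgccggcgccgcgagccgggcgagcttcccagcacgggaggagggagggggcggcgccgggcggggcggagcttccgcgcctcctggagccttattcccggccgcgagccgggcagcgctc
AREG, EREG and EPGN each held TATAAA on the gene's strand, beginning at positions -29, -32 and -29 from the start. Among 35116 RefSeq promoter windows of the same length, 10.7% held TATAAA anywhere on either strand, and 2.21% held it on the gene's strand beginning 35 to 20 bases before the start, a range set after these matches were seen. The same 3 genes each held TGACG, which 21.2% of windows held, and so did 1 of the 2 windows of TGFA, a ligand that did not pass in parental cells. The EGFR window just before the gene's span (chr7:55018767-55019016) held neither TATAAA nor TGANTCA. A second EGFR window (chr7:55109589-55109838), which lies inside the gene's span, held TATAAA 2 times and TGANTCA 2 times. In AREG the TGACG matches on opposite strands overlapped into 1 palindrome at positions -65 to -58, in EREG the match began at -125, and in EPGN at -44. GGAAA, which 55.6% of windows held, occurred 2 times in EREG, 2 times in EPGN and not in AREG. The HBEGF window, with a GC content of 76.4%, held none of the 4 motifs, and none of the 4 printed windows held TGANTCA, which 6.57% of all windows held. Such matches are letters in a window and do not show that a factor binds there.

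Per kilobase of exon, and with vehicle and thapsigargin libraries pooled, AREG had the highest mean level over the 18 libraries (2996 normalized counts per kb), followed by HBEGF (1737), EREG (1059) and TGFA (649). The order after AREG depended on the group: with vehicle, TGFA stood at 740 in Par siCont and 743 in GemR siCont, above the means of HBEGF (681 and 536) and EREG (447 and 482). EGFR stood at 198 and ERBB2 at 149 per kb, and this order turned with the longest transcript as the length, at 253 for EGFR and 311 for ERBB2. EPGN (51.9), ERBB3 (30.0) and BTC (7.63 per kb) were the lowest. BTC rested on 7 to 56 reads per library and EPGN on 5 to 481, so both carry larger counting error than the other members.

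**Figure D1:**
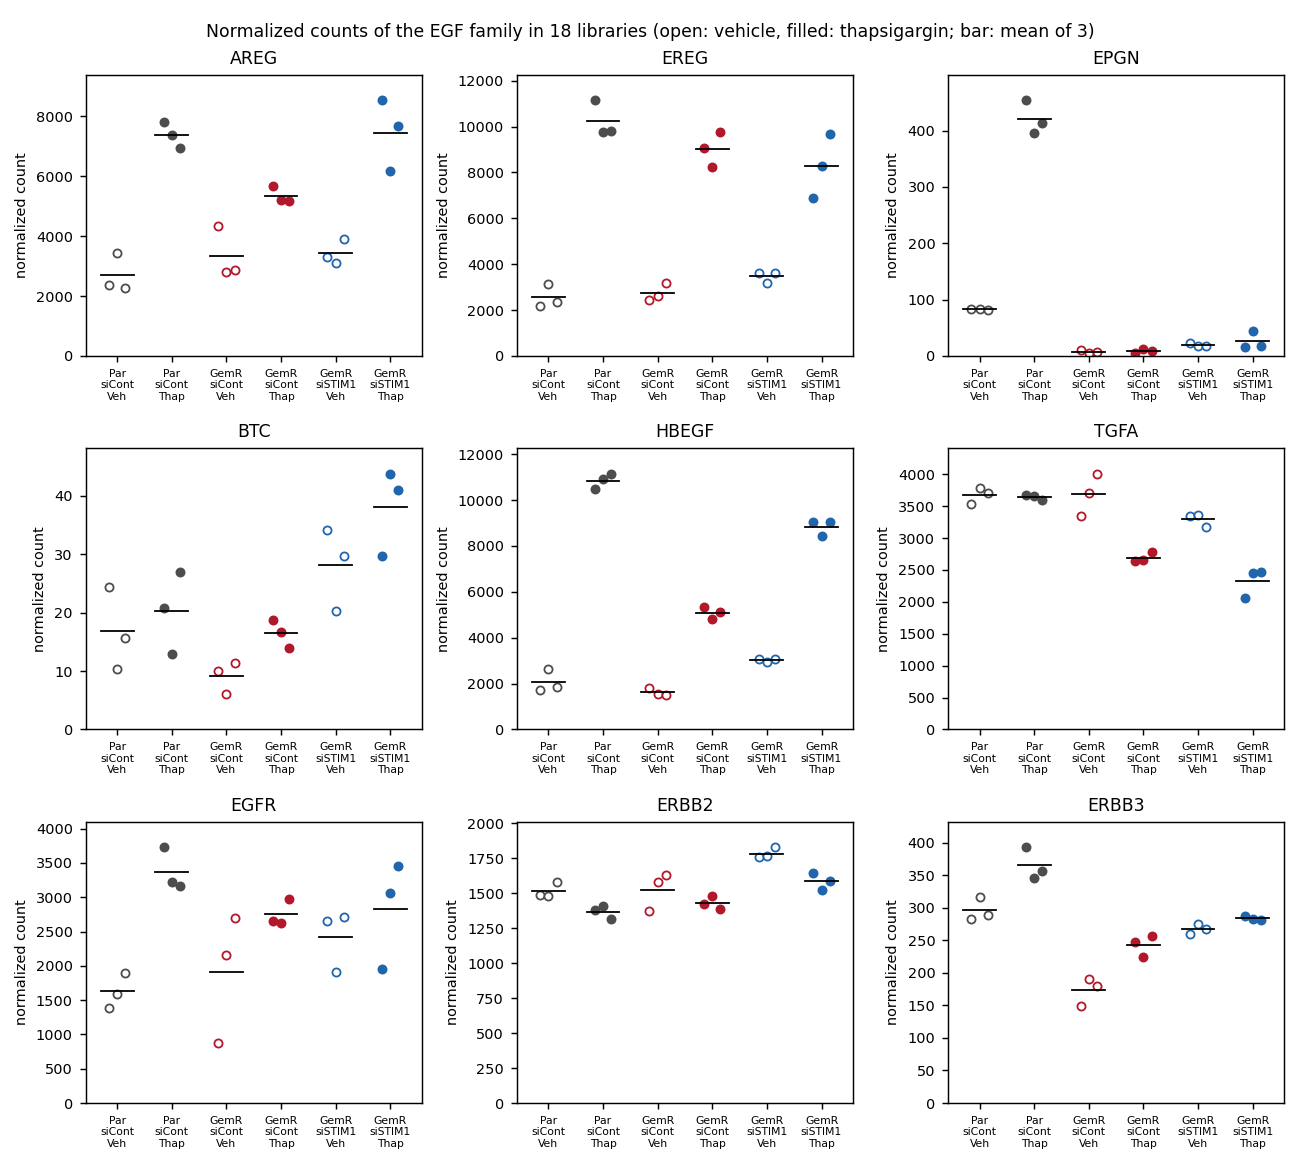
Normalized counts (y axis, from 0) of the 9 genes in each of the 18 libraries, by group (x axis), with open points for vehicle, filled points for thapsigargin and a bar at the mean of 3. HBEGF, AREG and EREG are higher in every thapsigargin library than in the vehicle libraries of the same cells, while EPGN reaches 395 to 454 in parental cells with thapsigargin and stays at or below 43.8 in all GemR libraries.

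The first comparison asked how 3 h of thapsigargin changed the family in parental cells. Thapsigargin raised 4 of the 6 ligands, HBEGF, EPGN, EREG and AREG, by 2.8-fold to 5.4-fold, and 2 of the 3 receptors, EGFR and ERBB3. None passed as lower. These 6 of 9 genes passed the test, beside 40.1% of all tested genes (20.5% higher and 19.7% lower), with limma on log2(normalized count + 1) and Benjamini-Hochberg adjustment over all genes, called at an adjusted p under 0.05. The libraries of the groups did not overlap for 7 members, beside 57.9% of all tested genes. The median log2 fold change of the 9 genes was 1.06, and that of all tested genes was -0.02.

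HBEGF, a ligand with a heparin-binding domain, stood at 1700, 2630 and 1834 normalized counts with vehicle and at 10462, 10903 and 11151 with thapsigargin. The ranges were far apart, and the log2 fold change was 2.43 ± 0.11 (SE), a rise of 5.37-fold (adjusted p = 1.76e-12). EREG, which encodes epiregulin, rose from 2187, 3120 and 2359 to 11156, 9781 and 9799. Its log2 fold change was 2.02 ± 0.13 (adjusted p = 3.14e-10), again with no overlap of the groups. AREG, the gene of amphiregulin, rose from 2352, 3430 and 2273 to 7816, 7367 and 6949, by 1.48 ± 0.16 on the log2 scale (adjusted p = 4.2e-07). Replicate 2 of the vehicle group, the shallowest library, was the highest of its group for HBEGF, EREG and AREG, and all 3 calls were kept without it. EPGN, the gene of epigen, was the least abundant of the rising ligands, at 83.2, 83.1 and 81.9 with vehicle and 454, 395 and 413 with thapsigargin, a log2 fold change of 2.33 ± 0.34 (adjusted p = 1.84e-05).

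TGFA, the gene of transforming growth factor alpha, did not share this rise. It stood at 3532, 3788 and 3699 with vehicle and 3677, 3665 and 3598 with thapsigargin, and the 95% confidence interval of its log2 fold change ran from -0.16 to 0.14. BTC, the gene of betacellulin, stood at 24.4, 10.4 and 15.6 against 20.8, 12.9 and 27.03, with an interval from -0.42 to 0.97 that leaves room for a change of either sign.

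EGFR rose from 1391, 1590 and 1898 to 3729, 3228 and 3164, by 1.06 ± 0.28 on the log2 scale (adjusted p = 0.00503). The groups did not overlap. Antisense transcription overlaps EGFR (EGFR-AS1), and the strand setting of the counting is not given in the sources used here, so reads of the pair cannot be told apart. ERBB3 stood at 282, 316 and 289 with vehicle and 393, 345 and 357 with thapsigargin (0.30 ± 0.10, adjusted p = 0.0166), and this call was lost in 3 of 6 fits that left out a library (Par vehicle replicate 1 or 3, or Par thapsigargin replicate 1, adjusted p up to 0.0865). ERBB2 was slightly lower in all 3 thapsigargin libraries, at 1378, 1406 and 1313 against 1487, 1477 and 1580, but its log2 fold change of -0.15 ± 0.07 did not pass (adjusted p = 0.0818). It passed with median-centred values (adjusted p = 0.0411), with quantile normalization (0.029), in a fit of the compared libraries alone (0.0306) and without the 2 libraries that fell most with length (0.0147).

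In GemR siCont cells, thapsigargin raised EREG, HBEGF, AREG and ERBB3 and lowered TGFA. These 5 of 9 genes compare with 33.6% of all tested genes (17.9% higher and 15.8% lower), and the groups did not overlap for 6 members, beside 42.6%. EREG stood at 2433, 2634 and 3192 with vehicle and 9062, 8222 and 9787 with thapsigargin (log2 fold change 1.72 ± 0.13, adjusted p = 3.4e-09). HBEGF went from 1818, 1527 and 1503 to 5335, 4817 and 5126 (1.66 ± 0.11, adjusted p = 5.59e-10). Neither pair of groups overlapped. AREG went from 4330, 2793 and 2869 to 5675, 5188 and 5185 (0.71 ± 0.16, adjusted p = 0.00176), and the vehicle library that stood high was replicate 1, one of the 2 that fell most with transcript length. TGFA fell from 3345, 3711 and 4010 to 2637, 2661 and 2780 (-0.45 ± 0.07, adjusted p = 7.18e-05).

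EPGN was near the limit of counting in these cells, at 10.0, 4.38 and 6.63 with vehicle and 4.70, 12.3 and 9.64 with thapsigargin (adjusted p = 0.557). BTC was higher in each thapsigargin library (18.8, 16.7 and 13.9 against 10.0, 6.13 and 11.4) but did not pass (0.81 ± 0.33, adjusted p = 0.0659). It passed without GemR siCont vehicle replicate 3 (adjusted p = 0.0435). ERBB3 rose from 149, 190 and 180 to 247, 225 and 256 (0.49 ± 0.10, adjusted p = 0.000496). ERBB2 stood at 1370, 1580 and 1628 against 1420, 1481 and 1386 (-0.09 ± 0.07, adjusted p = 0.313), and passed as lower without vehicle replicate 1 (-0.17, adjusted p = 0.0388, or 0.0217 without both libraries that fell most with length). EGFR was scattered in the vehicle group, at 881, 2158 and 2697 with vehicle and 2654, 2619 and 2981 with thapsigargin. Its log2 fold change was 0.67 ± 0.28 (adjusted p = 0.0713), and the value rested on single libraries: it was 0.19 (adjusted p = 0.465) without vehicle replicate 1, 0.83 (0.0471) without replicate 2 and 0.99 (0.00602) without replicate 3.

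After STIM1 knockdown, HBEGF, EREG and AREG still rose with thapsigargin and TGFA still fell, 4 of 9 genes beside 24.3% of all tested genes (12.5% higher and 11.9% lower). The groups did not overlap for 6 members, beside 38.3%. HBEGF went from 3068, 2954 and 3055 to 9042, 8416 and 9044 (1.54 ± 0.11, adjusted p = 2.71e-09). EREG went from 3612, 3190 and 3619 to 6880, 8295 and 9671 (1.24 ± 0.13, adjusted p = 4.4e-07). The groups were apart for both genes, with more scatter in EREG under thapsigargin. AREG went from 3292, 3088 and 3906 to 8535, 6169 and 7655 (1.11 ± 0.16, adjusted p = 2.45e-05). TGFA went from 3352, 3365 and 3170 to 2058, 2451 and 2470 (-0.51 ± 0.07, adjusted p = 2.55e-05). The remaining 5 members did not pass: EPGN stood at 22.8, 17.3 and 17.9 against 15.8, 43.8 and 18.5, and BTC at 34.1, 20.3 and 29.8 against 29.7, 43.8 and 41.1.

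None of the 3 receptors passed in this setting. ERBB3 stood at 259, 274 and 267 with vehicle and 287, 283 and 281 with thapsigargin (0.09 ± 0.10, adjusted p = 0.581). ERBB2 stood at 1758, 1765 and 1829 against 1648, 1525 and 1589 (-0.17 ± 0.07, adjusted p = 0.0741) and passed with quantile normalization (adjusted p = 0.0255) and without the 2 libraries that fell most with length (-0.20, adjusted p = 0.00876). In the authors' deposited table, ERBB2 has a log2 fold change of -0.17 with an adjusted p of 0.0492 for this comparison. EGFR stood at 2650, 1916 and 2707 against 1949, 3062 and 3458 (0.20 ± 0.28, adjusted p = 0.688). Without the 2 libraries that fell most with length, EGFR rose by 0.44 (adjusted p = 0.0048).

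**Figure D2:**
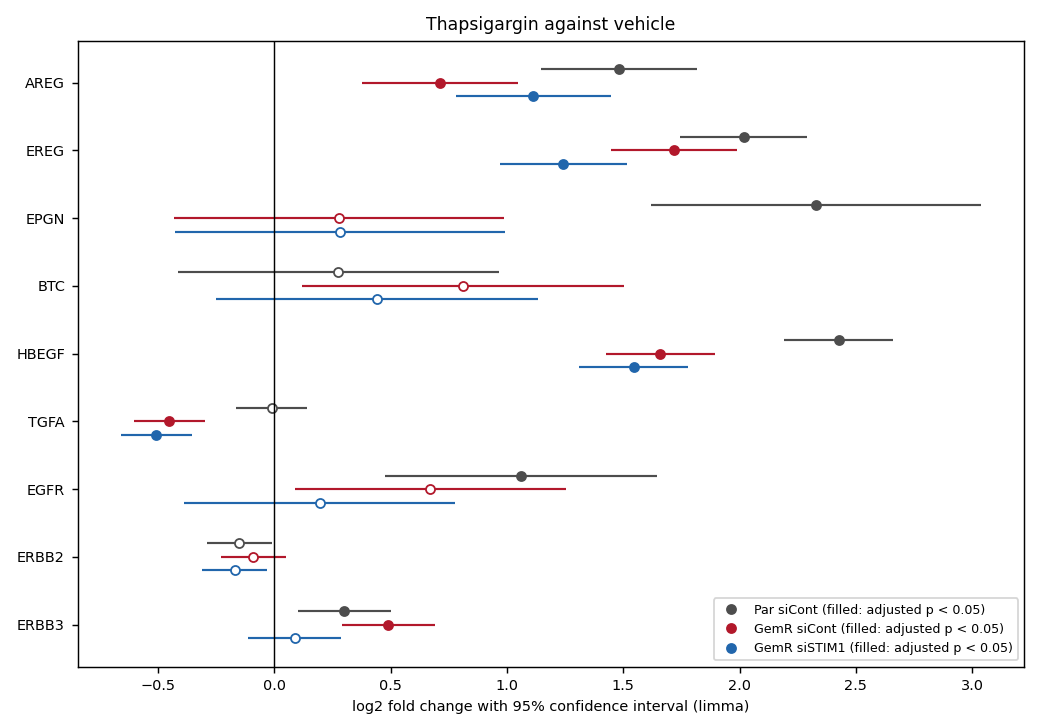
Log2 fold change of thapsigargin against vehicle (x axis, with 95% confidence intervals) for each gene in Par siCont, GemR siCont and GemR siSTIM1, with filled points where the adjusted p was under 0.05. HBEGF, EREG and AREG lie to the right of 0 in all 3 settings, EPGN passes in parental cells alone, and TGFA lies to the left in both GemR settings.

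The difference between the responses was tested as an interaction. The response to thapsigargin was smaller in GemR siCont than in Par siCont for HBEGF, AREG and EPGN, and TGFA responded downwards in GemR siCont against a value near 0 in Par siCont. These 4 of 9 genes compare with 14.8% of all tested genes (7.14% with a higher and 7.66% with a lower response in GemR siCont). The difference was -0.77 ± 0.16 (log2, SE) for HBEGF (adjusted p = 0.00222), -2.05 ± 0.48 for EPGN (adjusted p = 0.00589) and -0.44 ± 0.10 for TGFA (adjusted p = 0.00597). The TGFA call was lost with quantile normalization (-0.34, adjusted p = 0.0502). For AREG it was -0.77 ± 0.23 (adjusted p = 0.0256), and this call was lost in 5 of 12 fits that left out a library, with an adjusted p of up to 0.0783. The libraries concerned were Par vehicle replicates 1 and 3, Par thapsigargin replicate 1 and GemR siCont thapsigargin replicates 2 and 3. The AREG call was also lost in limma without trend (adjusted p = 0.0609). HSPA5, HERPUD1 and DDIT3, 3 genes of the endoplasmic reticulum stress response, also responded less in GemR siCont than in Par siCont (3 of 3 called). Their part in the result was not tested.

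EREG, the neighbour of AREG and EPGN on chromosome 4, differed by -0.30 ± 0.18 (adjusted p = 0.326, interval -0.68 to 0.09). Without the 2 libraries that fell most with length the difference was -0.38 (adjusted p = 0.0371). EGFR differed by -0.39 ± 0.39 (adjusted p = 0.591), and by -0.87 without GemR siCont vehicle replicate 1 (adjusted p = 0.00923). Whether parental and resistant cells differ in their EGFR response thus rests on that library.

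Between GemR siSTIM1 and GemR siCont, no member passed the test of a different response (0 of 9), beside 4.41% of all tested genes (1.5% higher and 2.9% lower). At an adjusted p under 0.05, edgeR and DESeq2 each called 0, as limma did. At an unadjusted p under 0.05 limma counted 2, EREG and ERBB3. The difference was -0.48 ± 0.18 for EREG (adjusted p = 0.154) and -0.40 ± 0.14 for ERBB3 (adjusted p = 0.1). EREG passed without GemR siCont vehicle replicate 3 (-0.59, adjusted p = 0.0468). For HBEGF the interval of the difference ran from -0.44 to 0.22, and for AREG from -0.07 to 0.88, so differences within those bounds are not excluded.

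Without thapsigargin, GemR siCont cells held less EPGN and ERBB3 mRNA than Par siCont cells, and slightly less HBEGF. These 3 of 9 genes, all lower, compare with 38.2% of all tested genes (18.1% higher and 20.1% lower). EPGN was lower by 10.9-fold (log2 fold change -3.45 ± 0.34, adjusted p = 1.71e-07), from a mean of 82.8 ± 0.731 (SD, n = 3) to 7.01 ± 2.84. ERBB3 was lower by 1.71-fold (-0.78 ± 0.10, adjusted p = 3.04e-06), at 173 ± 21.3 against 296 ± 18.03. Every GemR siCont library lay under every Par siCont library for these 2 members, beside 43.4% of all tested genes whose groups did not overlap. HBEGF differed by -0.32 ± 0.11 (adjusted p = 0.0272), but the ranges overlapped, and the value without Par vehicle replicate 2 was -0.13 (adjusted p = 0.212). The call was also lost without GemR siCont vehicle replicate 2 (adjusted p = 0.0862) or 3 (0.0806). It was lost as well in limma without trend (0.0546) and in a fit of these libraries alone (0.175).

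The other members did not pass. TGFA (3673 ± 130 in Par siCont and 3688 ± 333 in GemR siCont) had an interval from -0.15 to 0.16, and ERBB2 (1515 ± 56.7 and 1526 ± 137) from -0.13 to 0.15. AREG differed by 0.31 ± 0.16 (adjusted p = 0.14), and by 0.50 without Par vehicle replicate 2 (adjusted p = 0.0202). BTC differed by -0.77 ± 0.33 (adjusted p = 0.0739), and by -1.05 without the same library (adjusted p = 0.0257). EGFR differed by 0.10 ± 0.28 (adjusted p = 0.815), while without GemR siCont vehicle replicate 1 it was higher in GemR siCont by 0.58 (adjusted p = 0.0109). Beside these values, 4 of 5 epithelial markers were lower in GemR siCont with vehicle, EPCAM by -1.24 and CDH1 by -1.25 on the log2 scale, and their summed level ran from 39213 to 57045 against 63367 to 67190 in Par siCont. The summed fibroblast markers were at 1002 to 1237 against 1997 to 2242. The part of these markers in the result was not tested. In bulk RNA, fewer cells that express a gene and less RNA per cell cannot be told apart.

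With thapsigargin, HBEGF, EPGN, ERBB3, TGFA and AREG were lower in GemR siCont than in Par siCont, 5 of 9 genes beside 48.2% of all tested genes (23.2% higher and 25% lower). EPGN was lower by 45.2-fold (-5.50 ± 0.34, adjusted p = 1.63e-10) and HBEGF by 2.13-fold (-1.09 ± 0.11, adjusted p = 1.79e-07). TGFA differed by -0.44 ± 0.07 (adjusted p = 6.55e-05) and ERBB3 by -0.59 ± 0.10 (adjusted p = 5.23e-05). These 4, AREG and EGFR were lower in each GemR siCont library than in any Par siCont library, 6 of 9 members beside 64.8% of all tested genes whose groups did not overlap. AREG differed by -0.46 ± 0.16 (adjusted p = 0.0225), a call that was lost without Par thapsigargin replicate 1 or 2 or GemR siCont thapsigargin replicate 2 or 3 (adjusted p up to 0.0757). It was also lost with quantile normalization (adjusted p = 0.0607). EREG (-0.18 ± 0.13, adjusted p = 0.256), EGFR (-0.29 ± 0.28, adjusted p = 0.406), BTC and ERBB2 did not pass. EREG passed in a fit of these libraries alone (adjusted p = 0.00397), and EGFR there (8.61e-05) and without the 2 libraries that fell most with length (0.0189).

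STIM1 knockdown in GemR cells raised BTC, EPGN, HBEGF, ERBB3, ERBB2 and EREG when no thapsigargin was given. These 6 of 9 genes, all higher, compare with 42% of all tested genes (20.9% higher and 21.1% lower). The median log2 fold change of the 9 genes was 0.47, and that of all tested genes was 0.00. HBEGF rose from 1616 ± 176 (SD, n = 3) to 3026 ± 62.2, by 0.91 ± 0.11 (log2, SE, adjusted p = 4.11e-06). EPGN rose from 7.01 ± 2.84 to 19.3 ± 3.01 (1.39 ± 0.34, adjusted p = 0.00304) and BTC from 9.17 ± 2.72 to 28.1 ± 7.06 (1.52 ± 0.33, adjusted p = 0.00127). ERBB3 rose from 173 ± 21.3 to 267 ± 7.52 (0.63 ± 0.10, adjusted p = 4.57e-05). For these 4 genes and ERBB2 the groups did not overlap, 5 of 9 members beside 47% of all tested genes. Beside these values, the summed epithelial markers were at 39436 to 40693 against 39213 to 57045, with 2 of 5 called higher (CDH1 by 1.59 and KRT18 by 0.28) and KRT19 lower by -0.72. The summed endothelial markers were at 114 to 141 against 212 to 230, with PECAM1 and CDH5 called lower, and COL1A2 (-1.72) and CD68 (-0.51) were lower as well. Their part in the result was not tested.

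ERBB2 rose by a smaller amount, from 1526 ± 137 to 1784 ± 39.3 (0.23 ± 0.07, adjusted p = 0.01), and did not pass with edgeR (adjusted p = 0.0625), in a fit of these libraries alone (0.0936) or without GemR siCont vehicle replicate 1 (0.0527). EREG passed narrowly with overlapping ranges (0.34 ± 0.13, adjusted p = 0.0413). Its call was lost in 4 of 6 fits that left out a library (GemR siCont vehicle replicate 1 or 2, GemR siSTIM1 vehicle replicate 1 or 3) and under 5 other settings, with an adjusted p of up to 0.142. AREG differed by 0.06 ± 0.16 (adjusted p = 0.766). TGFA was lower by a value that missed the threshold (-0.16 ± 0.07, adjusted p = 0.0872) and passed without GemR siCont vehicle replicate 1 (-0.23, adjusted p = 0.0122). EGFR differed by 0.47 ± 0.28 (adjusted p = 0.18), by -0.01 (adjusted p = 0.972) without GemR siCont vehicle replicate 1, and by 0.80 (adjusted p = 0.0189) without replicate 3.

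With thapsigargin, HBEGF, EPGN, BTC and AREG were higher after STIM1 knockdown and TGFA was lower, 5 of 9 genes beside 36.6% of all tested genes (17.7% higher and 18.9% lower). The groups did not overlap for 7 members, beside 49.8%. In the same comparison KRT19 (-0.75), PECAM1 (-1.28) and CD68 (-0.54) were lower, KRT18 (0.31) was higher, and the stress genes DDIT3 (0.99), HSPA5 (0.38) and HERPUD1 (0.33) were higher. Summed epithelial markers ran from 38106 to 46435 against 48519 to 51506, and endothelial markers from 144 to 176 against 240 to 258. The part of these genes in the result was not tested. HBEGF stood at 8834 ± 362 against 5093 ± 261 (0.80 ± 0.11, adjusted p = 1.54e-05). EPGN (1.40 ± 0.34, adjusted p = 0.00308) and BTC (1.15 ± 0.33, adjusted p = 0.00979) kept differences near those with vehicle. AREG stood at 7453 ± 1196 against 5349 ± 282 (0.47 ± 0.16, adjusted p = 0.0277) and TGFA at 2326 ± 233 against 2693 ± 76.8 (-0.22 ± 0.07, adjusted p = 0.0262). Both of these calls were lost without GemR siCont thapsigargin replicate 2 or 3 or without GemR siSTIM1 thapsigargin replicate 1, and AREG's also without GemR siSTIM1 thapsigargin replicate 3, with adjusted p-values of up to 0.115 for AREG and 0.152 for TGFA. AREG's call was also lost in limma without trend (adjusted p = 0.058), and TGFA's with quantile normalization (0.0916). ERBB3 (0.23 ± 0.10, adjusted p = 0.0713) and ERBB2 (0.15 ± 0.07, adjusted p = 0.0839) missed the threshold and passed with median-centred values (0.0396 and 0.0393). EREG and EGFR differed by -0.13 ± 0.13 and -0.00 ± 0.28.

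The line comparison and the knockdown comparison share the GemR siCont libraries, so their values are set side by side without a test. EPGN differed by -3.45 between the lines and by 1.39 after knockdown, which left it at 19.3 against 82.8 in Par siCont. ERBB3 differed by -0.78 and 0.63, which left it at 267 against 296. HBEGF differed by -0.32 and 0.91, and its mean after knockdown (3026) lay above that of Par siCont (2055). With vehicle, the ERBB3 ranges of Par siCont (282 to 316) and GemR siSTIM1 (259 to 274) did not overlap. With thapsigargin they did not overlap either, at 345 to 393 and 281 to 287. The AREG ranges of Par siCont and GemR siSTIM1 with thapsigargin overlapped.

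**Figure D3:**
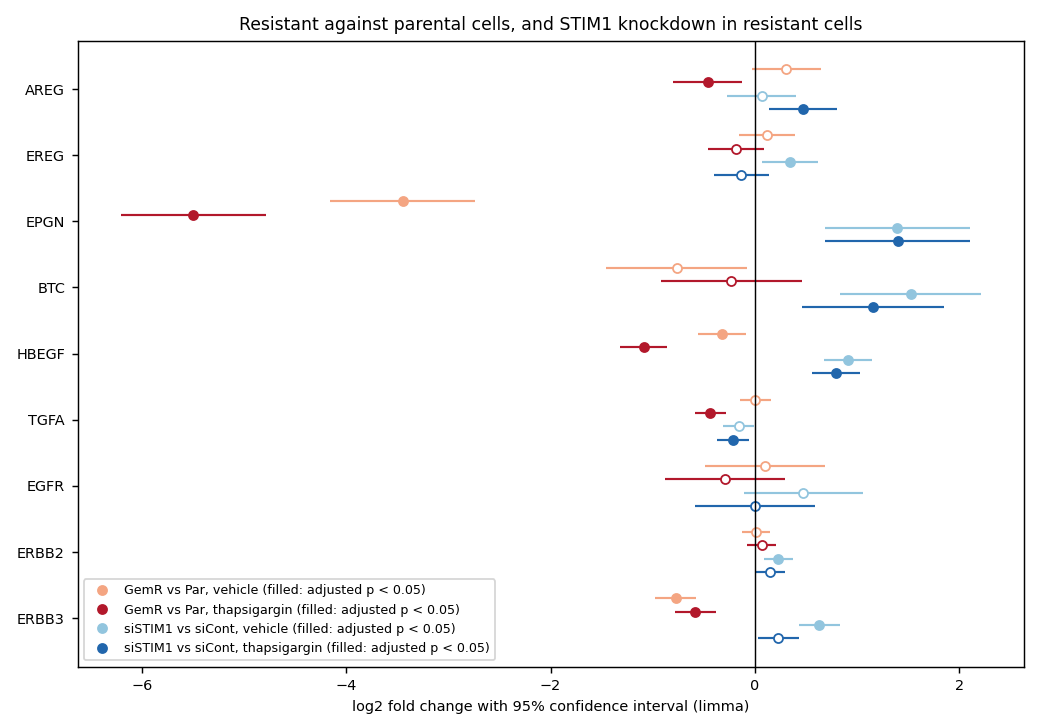
Log2 fold change (x axis, with 95% confidence intervals) of GemR siCont against Par siCont and of GemR siSTIM1 against GemR siCont, with vehicle and with thapsigargin, and filled points where the adjusted p was under 0.05. EPGN lies at -3.45 and -5.50 between the lines and at 1.39 and 1.40 after knockdown.

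The make-up of the ligand mRNA pool was described per kilobase of exon. In Par siCont with vehicle, AREG held 45.6% ± 2.56 (SD, n = 3) of the summed level of the 6 ligands, TGFA 21.2% ± 3.07 and HBEGF 19.1% ± 1.13. With thapsigargin the sum rose from 3549 ± 661 to 10830 ± 294 per kb, and the share of HBEGF was 33.2% ± 1.95 while that of TGFA was 6.78% ± 0.126. In GemR siCont the sum was 3789 ± 487 with vehicle and 7065 ± 308 with thapsigargin. The share of EREG under thapsigargin was 22.3% ± 1.47 there, against 16.5% ± 0.842 in Par siCont. HBEGF's share was 14.2% ± 0.574 in GemR siCont with vehicle and 23.0% ± 1.16 in GemR siSTIM1 with vehicle. AREG was the largest part of the pool in every group, and EPGN and BTC together stayed the smallest. These shares are of mRNA and say nothing of the amount of ligand released.

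**Figure D4:**
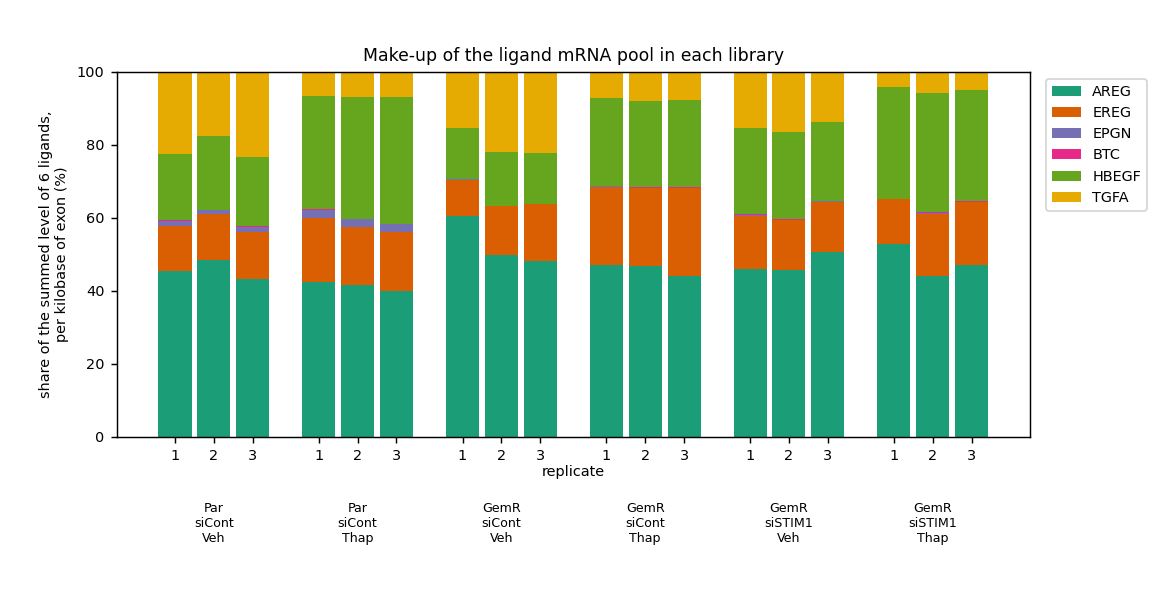
Share of each ligand (y axis, percent) in the summed level of the 6 ligands per kilobase of exon, in each library by group and replicate (x axis). The TGFA share is smaller and the HBEGF share larger in every thapsigargin library than in the vehicle libraries of the same cells.

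Of the remaining ligands and receptor of the family, a fixed list of 6, 4 were tested, and their group means ran from 48.7 to 120 normalized counts for NRG4, 115 to 156 for EGF, 112 to 373 for NRG2 and 1197 to 3678 for NRG1. NRG1, a ligand of ERBB3 and ERBB4, rose with thapsigargin in Par siCont from 1757 ± 163 (SD, n = 3) to 3678 ± 261 (log2 fold change 1.07 ± 0.10, adjusted p = 7.25e-08), and by 0.44 in GemR siCont and 0.43 in GemR siSTIM1. It was lower after STIM1 knockdown, by -0.58 with vehicle (adjusted p = 0.000188) and -0.59 with thapsigargin (adjusted p = 0.000128). NRG2 was higher in GemR siCont than in Par siCont, by 0.76 with vehicle and 1.56 with thapsigargin. Between these lines with thapsigargin, NRG4 was also higher (0.91) and NRG1 lower (-0.60). NRG4 fell with thapsigargin in Par siCont (-0.46) and GemR siSTIM1 (-0.48). Of the 4 genes, 1 rose and 1 fell with thapsigargin in Par siCont, beside 20.5% and 19.7% of all tested genes. In GemR siCont 2 rose and 0 fell, beside 17.9% and 15.8%. In GemR siSTIM1 2 rose and 1 fell, beside 12.5% and 11.9%. EGF itself passed in none of the 3 thapsigargin comparisons. ERBB4 and NRG3 were below the filter on low values, and ERBB4 did not exceed 3.90 normalized counts in any library.

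Of the genes that release ligands from the membrane, 7 of 8 listed symbols were in the table. With thapsigargin, 2 of the 7 rose and 1 fell in Par siCont, beside 20.5% and 19.7% of all tested genes. In GemR siCont 1 rose and 1 fell, beside 17.9% and 15.8%. ADAM17, the main sheddase of AREG, EREG, HBEGF and TGFA, rose by 0.91 ± 0.13 in Par siCont (adjusted p = 1.35e-05) and 0.95 ± 0.13 in GemR siCont (adjusted p = 9.13e-06). ADAM9 also rose in Par siCont (0.27), while ADAM15 fell there (-0.20) and RHBDF1 fell in GemR siCont (-0.34). In GemR siSTIM1, limma called 0 of the 7, and ADAM17 stood at 0.31 ± 0.13 (adjusted p = 0.0937). The interaction test between GemR siSTIM1 and GemR siCont also called 0 of the 7, beside 4.41% of all tested genes. A different response of ADAM17 after knockdown was thus not shown. In GemR siCont with vehicle, 4 of 7 were lower than in Par siCont and 0 higher (beside 20.1% and 18.1% of all tested genes), among them RHBDF2, an iRhom that brings ADAM17 to the surface (-0.97 ± 0.11, adjusted p = 1.11e-06), and ADAM17 itself (-0.58 ± 0.13, adjusted p = 0.00145). STIM1 knockdown raised 5 of 7 with vehicle, beside 20.9% of all tested genes, led by ADAM12 (2.27 ± 0.22, adjusted p = 2.51e-07).

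Of 17 tested genes that inhibit or degrade ERBB receptors, 9 rose and 3 fell with thapsigargin in Par siCont, beside 20.5% and 19.7% of all tested genes. In GemR siCont 8 rose and 1 fell, beside 17.9% and 15.8%, and in GemR siSTIM1 4 rose and 2 fell, beside 12.5% and 11.9%. ERRFI1, which binds and blocks the EGFR kinase, rose by 2.88 ± 0.10 in Par siCont (adjusted p = 3.21e-14), 1.71 ± 0.10 in GemR siCont and 1.80 ± 0.10 in GemR siSTIM1. Its response was smaller in GemR siCont than in Par siCont by -1.17 ± 0.15 (adjusted p = 1.36e-05). By this interaction test, 3 of the 17 genes had a higher and 2 a lower response in GemR siCont. These compare with 7.14% and 7.66% of all tested genes. The higher ones were SOCS3 (0.83), PTPRJ (0.68) and SOCS5 (0.65). CBLB, a ubiquitin ligase that marks activated receptors for degradation, rose by 2.32, 1.72 and 1.45 in Par siCont, GemR siCont and GemR siSTIM1. RNF41, a ubiquitin ligase of ERBB3, rose by 0.99, 0.61 and 0.67. LRIG3 fell by 0.78, 0.74 and 1.03. LRIG1, a transmembrane inhibitor of ERBB receptors, was lower in GemR siCont than in Par siCont by -1.69 ± 0.11 with vehicle (adjusted p = 3.68e-10). STIM1 knockdown lowered it further, by -0.60 ± 0.11 with vehicle (adjusted p = 0.000222) and -1.14 ± 0.11 with thapsigargin (adjusted p = 1.06e-07). Of the 17 genes, 0 were higher and 7 lower in GemR siCont than in Par siCont with vehicle, beside 18.1% and 20.1% of all tested genes. With thapsigargin 1 was higher and 7 lower, beside 23.2% and 25%. After knockdown 5 were higher and 4 lower with vehicle, beside 20.9% and 21.1%. With thapsigargin 3 were higher and 4 lower after knockdown, beside 17.7% and 18.9%. PTPRJ (0.59, vehicle) was among the higher ones.

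**Figure D5:**
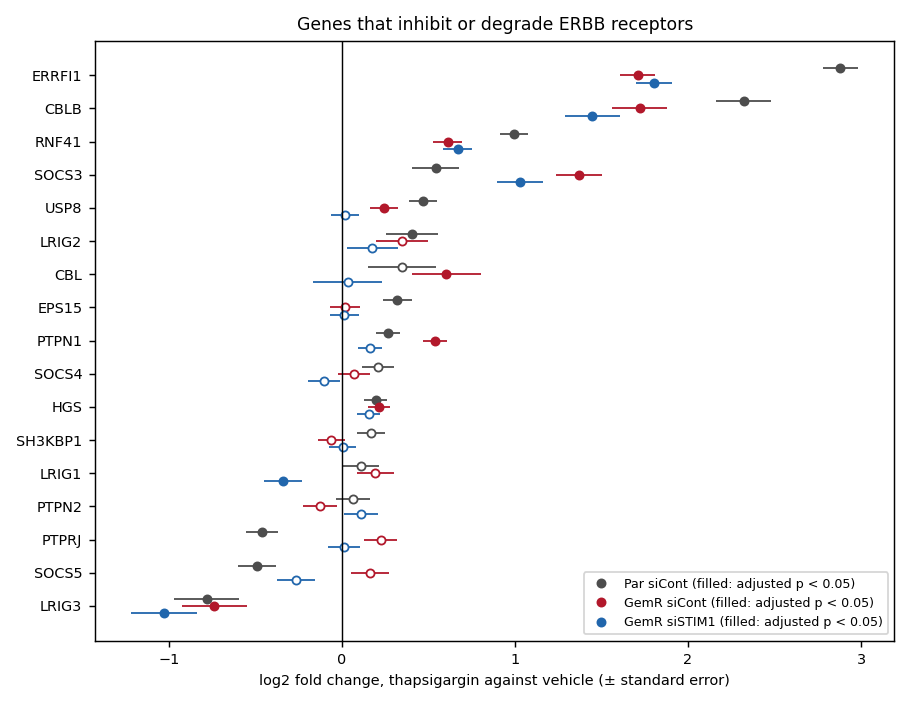
Log2 fold change of thapsigargin against vehicle (x axis, with standard errors) for the 17 tested genes that inhibit or degrade ERBB receptors, in Par siCont, GemR siCont and GemR siSTIM1, with filled points where the adjusted p was under 0.05. ERRFI1 and CBLB lie farthest to the right and LRIG3 farthest to the left.

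Downstream of the receptors, the changes went both ways. Of 24 adaptors and kinases, 6 rose and 6 fell with thapsigargin in Par siCont, 7 rose and 1 fell in GemR siCont, and 2 rose and 2 fell in GemR siSTIM1, beside 40.1%, 33.6% and 24.3% of all tested genes called in either direction. SOS2, an exchange factor that activates RAS, rose in all 3 (0.95, 0.68 and 0.40), and PIK3R1, a regulatory subunit of PI3K, fell by 0.71 in Par siCont. Among 10 genes whose mRNA is known to follow MAPK activity, 3 rose and 4 fell in Par siCont, 3 rose and 2 fell in GemR siCont, and 3 rose and 2 fell in GemR siSTIM1, to be read beside the same shares. PHLDA1 rose by 1.42, 1.28 and 0.71, while CCND1, the gene of cyclin D1, fell by 0.62, 0.87 and 1.04. After STIM1 knockdown, 2 of these 10 genes were higher and 4 lower with vehicle, beside 20.9% and 21.1% of all tested genes. With thapsigargin 1 was higher and 4 were lower, beside 17.7% and 18.9%. DUSP6, a phosphatase that acts on ERK, fell after knockdown by 0.64 with vehicle (adjusted p = 2.87e-06) and 0.95 with thapsigargin (adjusted p = 1.16e-08). PHLDA1 was higher after knockdown with vehicle, by 0.44 (adjusted p = 0.000187).

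Across the 18 libraries, the log2 levels of HBEGF and AREG (Pearson r = 0.93), HBEGF and EREG (0.93) and AREG and EREG (0.90) ran closest together among the members. These values describe libraries that share treatments and depth, and carry no test. Of 10941 other genes with a mean of at least 50, those most like HBEGF were COPB2 (0.98), ADM2 and GOLGA5, and those most like EREG were PRRC1 (0.99), CCNG2 and OGT. For AREG they were C14orf28 (0.95), DERL2 and ATF4, for EPGN RBBP8 (0.96), C19orf54 and PPP1CB, and for TGFA DDIAS (0.97), G2E3 and DHX15. For EGFR they were NBEAL1 (0.97), UBXN7 and ZNF791, for ERBB2 TBC1D9B (0.96), ARAP3 and ARHGEF17, and for ERBB3 ATHL1 (0.95), FAM107B and CEMIP. For BTC, searched over 10942 genes because its own mean lies under 50, ARNT2 was highest at 0.86.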

How the data were processed

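Libraries came from a TruSeq RNA kit (v2), per the labels' protocols. The submitters' processing notes name hg38, STAR 2.6.0c, HTSeq 0.11.1 and DESeq2; neither annotation nor strand setting is named there. Deposited by the authors were normalized counts, used here as a signal, and tables of comparisons with log2 fold changes and p-values. Each column held whole multiples of its smallest value (100% within 0.01 of a read), which gave whole reads; for GemR siSTIM1 vehicle replicate 3 that step was too near 1, so count tests used 17 libraries.

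Log2(normalized count + 1) of genes with a mean of at least 10 was fitted with limma 3.58.1 (R 4.3.3, trend, two-sided, 12 residual degrees of freedom, all 18 libraries) in 9 comparisons, 2 of them interactions, with Benjamini-Hochberg adjustment over all genes. edgeR 4.0.16 and DESeq2 1.42.0 on recovered counts, other pseudocounts, filters and scalings, a replicate block and leaving out each library were alternatives. On those reads edgeR called 5204 genes for thapsigargin in parental cells (limma 5253), 4357 with siCont in GemR (limma 4402) and 2630 with siSTIM1 (limma 3187). The fit was tested on simulated data. All 9 members are named, and from 5 fixed gene lists at most the 4 called genes of largest change per comparison, with STIM1, 3 stress genes and cell type markers as checks. EGF, ERBB4, NRG3, RNF41 in both GemR settings, ADAM17 in GemR siSTIM1 and the chromosome 4 neighbours lie outside that rule and were named after their values were seen. The members and lists were chosen with earlier results of these data known.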

Additional observations from a re-analysis of the deposited data

Results flagged for a closer look

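In 4 genes the response to thapsigargin differed between GemR siCont and Par siCont by the interaction test in limma (Benjamini-Hochberg adjustment over all genes, 3 libraries a group). The log2 difference was -0.77 for AREG (adjusted p = 0.0256), -2.05 for EPGN (adjusted p = 0.00589), -0.77 for HBEGF (adjusted p = 0.00222) and -0.44 for TGFA (adjusted p = 0.00597). EPGN rested on few counts in GemR siCont, where its normalized counts ran from 4.38 to 12.3. The TGFA call was lost with quantile normalization (-0.34, adjusted p = 0.0502). The AREG call was lost in 5 of 12 fits that left out a library and in limma without trend (adjusted p = 0.0609).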

How the results depend on the processing

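The counts of members called kept within 1.5 times under all planned settings except where a library was left out. Leaving out a library gave 3 to 5 calls for STIM1 knockdown with thapsigargin (5 with all libraries; 3 without GemR siCont thapsigargin replicate 2 or 3 or GemR siSTIM1 thapsigargin replicate 1) and 0 to 1 for the difference between the siSTIM1 and siCont responses. Among log2 fold changes, 849 of the planned values kept direction and call, 14 lost the call, 12 gained it and 7 changed sign; with a library left out these were 528, 27, 11 and 28. None of the sign changes was in a called value.

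Values of uncalled members changed sign as follows (log2). AREG after STIM1 knockdown with vehicle was -0.075 by edgeR, -0.058 by DESeq2 and -0.047 to 0.27 with a library left out. EGFR after knockdown with thapsigargin was 0.023 with median-centred values, 0.04 with quantile normalization, 0.044 by edgeR, 0.04 by DESeq2, and -0.17 to 0.24 with a library left out. EGFR ran from -0.010 to 0.80 after knockdown with vehicle, from -0.23 to 0.58 between the lines with vehicle, and from -0.80 to 0.008 in the difference between the siSTIM1 and siCont responses. EPGN was -0.010 in that difference with a pseudocount of 0.5 and -0.43 to 0.27 with a library left out, and -0.15 to 0.55 for thapsigargin in siSTIM1 cells. Small values crossed 0 for TGFA (-0.038 to 0.013 in Par siCont with thapsigargin, -0.060 to 0.071 between the lines with vehicle, -0.12 to 0.029 in the siSTIM1 difference), ERBB2 (-0.042 to 0.083 between the lines with vehicle, -0.017 to 0.11 in the line difference of responses) and BTC (-0.0072 to 0.57 in Par siCont).

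Both of the next alternatives were chosen after seeing the data. Without both libraries that fell most with length, EGFR was -0.010 and 0.24 after knockdown with vehicle and thapsigargin and 0.25 in the siSTIM1 difference, ERBB2 was -0.017 in the line difference and TGFA 0.098 in the siSTIM1 difference, and 3852 genes in place of 1938 differed in response between the lines. A term for each library's length slope was taken from deviations within groups, so it leaves every estimate as it was and only removes spread, and its p-values are too small. With it 5 members were called between the lines with vehicle (3 without it) and 4 in the siSTIM1 difference (0 without it), with 5046, 3846 and 3501 genes called for siSTIM1 with thapsigargin, the line difference and the siSTIM1 difference (3187, 1938 and 577 without it), and 45.4% of the last higher against 34.1%. In a fit of the compared libraries alone, 2843 genes were called for GemR siCont with thapsigargin (4402 with all libraries), 3129 between the lines with vehicle (5000), 3294 after knockdown with vehicle (5496) and 317 in the siSTIM1 difference (577, or 346 by edgeR). Without GemR siCont vehicle replicate 1, 2943 genes differed between the lines' responses, and leaving out a library gave 323 to 1216 in the siSTIM1 difference, the highest without GemR siCont vehicle replicate 3.

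Whether the same replicate numbers pair the samples is not settled here. Deviations were correlated above 0.1 in 6 of 21 pairs of libraries with the same number (range -0.18 to 0.23). Such values cannot exclude pairing. With a replicate block, 7 members were called for GemR siCont with thapsigargin (5 without), EGFR (0.67, adjusted p = 0.0349) and BTC (0.81, adjusted p = 0.045) being added, and the counts of the other 8 comparisons did not move. Depth limits EPGN in GemR cells and BTC throughout.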

Other observations

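On chromosome 4, EREG and AREG rose with thapsigargin in all 3 settings, EPGN passed in Par siCont alone and BTC in none. MTHFD2L, next to EPGN, changed by -0.35, -0.14 and -0.40 on the log2 scale in Par siCont, GemR siCont and GemR siSTIM1, and PARM1, beyond BTC, by -0.14, 0.13 and -0.05, with no call by limma. On the far side of MTHFD2L, the chemokine genes CXCL2 (3.73, 3.39 and 3.08) and CXCL3 (2.64, 4.41 and 2.52) rose in all 3 settings. CXCL5 (0.09, 0.10 and 0.42) and CXCL6 (-0.57, 0.78 and 0.35), tested in the same cluster, were called in none. CXCL1, in the same chemokine cluster, rose by 2.90 in GemR siCont (adjusted p = 6.36e-11) and 1.73 in GemR siSTIM1 (adjusted p = 1.59e-07) but stood at 0.17 in Par siCont (adjusted p = 0.437). The interaction test between the cell lines is not reported here for it. These neighbours were chosen after their values were seen.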
